A study of Mus musculus with 369 samples.

Results

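A set of 35 genes of sterol and fatty acid synthesis, of the factors that control them and of sterol storage was followed in single microglia, the resident macrophages of the brain. They were taken by symbol, and all 35 symbols were found among the 23337 genes of the count table. By role, 17 belong to sterol synthesis, 6 to fatty acid synthesis, 5 to the machinery of the sterol-sensing transcription factors, and 7 to sterol binding, sterol storage and the liver X receptors. The cells came from whole brains of male mice at postnatal day 7 on a C57BL/6J background, either wild type or Trem2 knockout (labelled TREM2_KO). Trem2 is a lipid-binding surface receptor of microglia, and how its knockout was built is not given in the sources. Cells of each genotype were sorted through a gate for low CD45 and positive CD11b, called unselected here, or through one that also required Gpnmb and Clec7a at the surface, called gated here. Libraries were made in plates with Smart-seq2, where each well holds 1 cell and its amplified RNA carries no molecular identifiers. After the quality criteria of the labels, 78 unselected and 90 gated cells of wild-type mice and 90 unselected and 76 gated cells of knockout mice remained, and values listed without group names below follow this order.

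Each group came from 1 plate and no animal was named, so each group is 1 sample. No test between groups was possible, differences carry no replicate check, and an effect of the plate cannot be told apart from one of genotype or gate. A level is a gene's share of all gene counts summed over a group, as CPM (gene counts scaled to a common total of 1e6), with exact 95% Poisson intervals that cover counting error only, because amplified reads are not independent molecules. Differences are log2 ratios of CPM plus 1, and folds are on the same scale. A gene is called higher or lower when it differed at least 2-fold, reached 5 CPM in the higher group and had the same direction in the mean of single-cell CPM values, a size threshold that tests nothing. Shares of cells refer to cells thinned to 100000 gene counts.

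Gene counts per cell ranged from 157653 to 1051282. Median detected genes per cell were 2607.5, 3162.5, 2184 and 3995, and median gene counts per count of added spike-in RNA were 24.9, 39.8, 18.1 and 53.7. Trem2 itself was at 1115, 1604, 229 and 413 CPM. All 9 microglia markers were present in every group, the lowest at 111 CPM (Tmem119 in knockout gated cells). Summed, they were at 46529, 31915, 46503 and 23889 CPM, lower in the gated groups. Summed markers of border-associated macrophages, found at vessels and meninges, were at 843, 2108, 902 and 2089 CPM, and summed markers of cycling cells at 790, 287, 1275 and 597 CPM. Markers of neurons, monocytes and neutrophils each summed to at most 5.15 CPM in a group. Among astrocyte markers Slc1a3 reached 41.7 CPM, and among those of the oligodendrocyte lineage Cnp reached 134 CPM. The endothelial markers summed to at most 26.4 CPM.

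As background, cells make cholesterol from acetyl-CoA through the mevalonate pathway, squalene and lanosterol. When sterols in the endoplasmic reticulum run low, the escort protein Scap carries the sterol regulatory element-binding proteins (SREBPs) to the Golgi, where they are cut into transcription factors that switch on synthesis genes, and when sterols are plentiful the Insig proteins hold Scap back. Oxidised and late sterol intermediates instead activate the liver X receptors (LXRs), which turn on genes of sterol export and the ubiquitin ligase Mylip.

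Soat1, which esterifies cholesterol for storage in droplets, and Stard5, a cytosolic sterol-binding protein, were higher in gated than in unselected cells of both genotypes. Fdft1 and Sqle, which make and oxidise squalene, and Hsd17b7, an enzyme of sterol demethylation, were called lower in gated cells of both genotypes. Those calls were made at CPM scaling, and spike-in scaling ended all of them but that of Hsd17b7 in wild-type cells. In knockout cells Fdft1 and Sqle were found in a larger share of gated than of unselected thinned cells, and Hsd17b7 in a smaller one. No sterol synthesis gene was called higher with the gate in either genotype at CPM scaling. Spike-in scaling called 8 of 17 higher in knockout cells, against 52.6% of all measured genes. Cells with 2000 to 4000 detected genes gave 3 there (against 15.7%) and 1 in wild-type cells (against 21.4%). Leaving out border-associated macrophage marker cells or cycling marker cells gave 1 each in wild-type cells, against 16.6% and 18.7%. Ch25h, which makes the signalling oxysterol 25-hydroxycholesterol, was found in knockout gated cells alone.

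As a list the 35 genes lay near all measured genes with the gate in knockout cells, and less near in the other comparisons. Throughout, list shares count all listed genes, including those under 5 CPM that could not be called. Background shares count measured genes only, so the list shares are the smaller for it. Of the 35 members 30, 30, 31 and 29 were measured in the comparisons, in the order given next. With the gate in wild-type cells, 2 of 35 members were called higher (5.71%, against 14.3% of 9879 measured genes) and 9 lower (25.7%, against 20.5%). With the gate in knockout cells, 4 were higher (11.4%, against 11.6% of 9882 genes) and 7 lower (20.0%, against 22.6%). Between knockout and wild-type unselected cells, 7 were higher (20.0%, against 16.1% of 9929 genes) and 6 lower (17.1%, against 13.2%). Between knockout and wild-type gated cells, 6 were higher (17.1%, against 10.5% of 9659 genes) and 1 lower (2.86%, against 12%). Of the 17 sterol synthesis genes 6 were lower with the gate in wild-type cells (35.3%), above the background share, and 5 in knockout cells (29.4%), nearer to it. In each of these gate comparisons 15 of the 17 were measured. Scaled on spike-in counts, the 6 lower calls became 3 and the 5 became 0, against 12.2% and 3.80% of all measured genes. The median log2 of all measured genes shifted to 0.32 and 1.06.

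**Figure D1:**
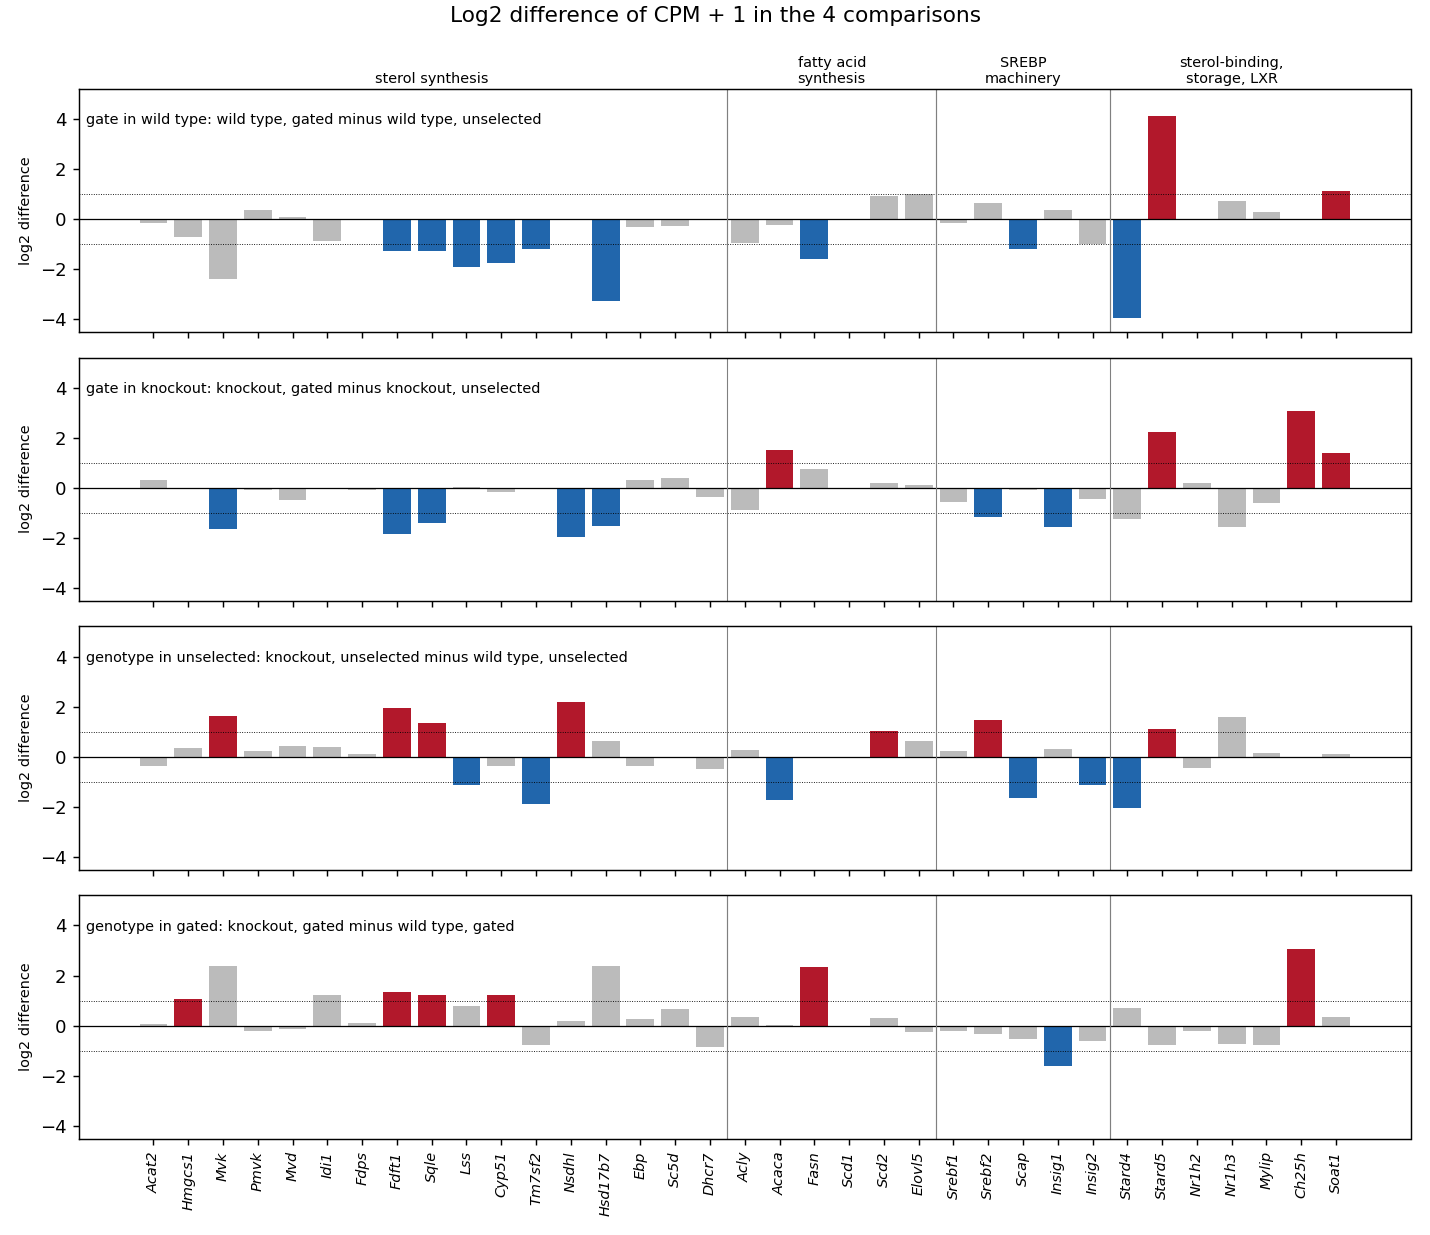
Log2 difference of CPM plus 1 (vertical axis) for the 35 genes, grouped by role, in the 4 comparisons, with 1 plate per group and no replicate error. Coloured bars passed the size rule (red higher, blue lower), grey bars did not, and dotted lines mark 2-fold. Stard5 (4.1 and 2.24) and Soat1 (1.12 and 1.38) were higher with the gate in both genotypes, and no sterol synthesis gene passed the rule in that direction at this scaling.

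The SREBP machinery is described first. Srebf1, which encodes the SREBP best known for fatty acid genes, was at 64.8, 58.2, 75.4 and 50.4 CPM and passed the size rule in no comparison. Srebf2, which encodes the SREBP best known for sterol genes, was at 6.41, 10.6, 19.6 and 8.16 CPM. It was called higher in knockout than in wild-type unselected cells (2.78-fold) and lower with the gate in knockout cells (2.25-fold). Neither call was stable, since without cells carrying cycling markers the genotype difference was a log2 of -0.21, and spike-in scaling turned the gate difference to 0.06. Srebf2 was found in 7.69%, 7.78%, 10.0% and 18.4% of thinned cells, so its highest summed level was not in the group with the most positive cells.

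Scap, the escort of both SREBPs, was at 74.9 CPM in wild-type unselected cells and at 32.5, 23.5 and 22.4 CPM in the others. Scap was thus 3.1-fold lower in knockout than in wild-type unselected cells, and this call was kept under all 14 alternatives, over a log2 range of -2.29 to -1.49. It was also 2.27-fold lower with the gate in wild-type cells, where spike-in scaling left a log2 of -0.72 and ended the call. Of its exon bases 13.2% are shared with a transcript on the opposite strand (5830462I19Rik), and the sources do not say whether counting used strand.

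Insig1 and Insig2 encode the proteins that retain Scap. Insig1, itself an SREBP target, was at 15.4, 20.0, 19.5 and 5.90 CPM. It was called lower in knockout gated cells than in wild-type gated (3.05-fold) and knockout unselected cells (2.97-fold). A single cell held 64.3% of the Insig1 counts of wild-type gated cells, and without the top cell of each group the genotype difference was a log2 of -0.86 and no longer called. Without cells carrying 3 or more border-associated macrophage markers the gate difference turned to 0.42. Insig1 was found in 8.97%, 5.56%, 10.0% and 11.8% of thinned cells, and the lowest level thus went with the highest share of positive cells. Insig2 was at 95.5, 47.6, 43.3 and 31.4 CPM, highest in wild-type unselected cells, and was called lower in knockout than in wild-type unselected cells (2.18-fold). By mean CPM per cell and in thinned cells that call was lost, with a smallest log2 of -0.84.

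Sterol synthesis genes were sparse in all 4 groups. At equal depth the median cell held 1, 2, 1 and 4 of the 17 genes, and 12, 16, 24 and 3 cells held none. Summed over the 17 genes, levels were 480, 333, 556 and 431 CPM, with single cells from 0 to 2446, 1263, 3429 and 1675 CPM. Ebp, the sterol isomerase, had the highest level per kilobase of exon among the 17 genes in every group, at 42.5, 34, 32.7 and 40.4 CPM per kilobase. Knockout gated cells therefore had the most positive cells without the highest sum, and the sum was lowest in wild-type gated cells. The cycling markers stood in the same order of groups as these sums, and their part in the sums was not tested. Across the cells within each group, the rank correlation (Spearman) of sterol synthesis genes with cycling markers was -0.08, 0.06, 0.04 and 0.05. Without cells carrying 2 or more cycling markers, the gate in wild-type cells left 4 of the 17 genes called lower, against 21.9% of all measured genes. The median log2 of the 17 was then -0.73, and 1 was called higher, against 18.7%.

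The early mevalonate steps mostly stayed within 2-fold. Acat2, Pmvk, Mvd and Fdps, which act between acetyl-CoA and farnesyl pyrophosphate, ranged from 12.5 to 31.1 CPM over the groups, and Idi1, the isomerase between them, from 0.614 to 2.95 CPM. None of these 5 genes was called in any comparison, but Idi1 lay under 5 CPM in every group and could not be called. Idi1 was 2.35-fold higher in knockout gated than in wild-type gated cells. Mvk, mevalonate kinase, was at 4.31, 0, 15.4 and 4.28 CPM. It was found in 4 of 78, 0 of 90, 4 of 90 and 10 of 76 unthinned cells. Mvk was called higher in knockout than in wild-type unselected cells (3.08-fold) and lower with the gate in knockout cells (3.1-fold), on 874 counts in knockout unselected cells, of which 49.4% came from 1 cell. Spike-in scaling left the gate difference at -0.45 and ended that call. Mvk in wild-type gated cells was also 5.31-fold under wild-type unselected and 5.28-fold under knockout gated cells. Neither difference could be called, as no group in them reached 5 CPM.

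Hmgcs1, which commits acetyl units to the mevalonate pathway, lies on chromosome 13 (119690379 to 119708260, plus strand, mm10). It was at 46.7 CPM (44.6 to 48.9) in wild-type unselected, 27.8 (26.4 to 29.2) in wild-type gated, 60.6 (58.6 to 62.7) in knockout unselected and 58.9 (56.8 to 61.1) in knockout gated cells. It was detected in 23.1%, 20.0%, 13.3% and 44.7% of thinned cells. Knockout gated cells were above wild-type gated cells both in level (2.08-fold) and in share of cells, whereas the 2 knockout groups had like levels and unlike shares. Among cells with 2000 to 4000 detected genes the genotype difference was a log2 of 0.01, and the call was lost under 5 of 14 alternatives. The promoter of Hmgcs1 is shown because it was the only one of 29 matched members with the letters of a sterol regulatory element, TCACNCCAC, on either strand. Those letters stand in windows of 1.44% of genes and in 1.24% of the 32851 promoter windows of RefSeq (GRCm38.p6), each from 250 bases before to 50 after a start site. In the sequences below capitals mark this element, CCAAT boxes (CCAAT), GC boxes (GGGCGG) and E-boxes (CACGTG) on either strand.
Hmgcs1 (chr13:119690101-119690400, plus strand): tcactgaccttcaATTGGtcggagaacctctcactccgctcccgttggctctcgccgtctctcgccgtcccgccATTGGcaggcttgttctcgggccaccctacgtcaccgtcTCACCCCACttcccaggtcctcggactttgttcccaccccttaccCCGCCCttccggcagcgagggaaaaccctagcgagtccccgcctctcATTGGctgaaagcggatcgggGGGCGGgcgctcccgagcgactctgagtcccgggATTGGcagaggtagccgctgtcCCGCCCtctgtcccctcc
Hsd17b7 (chr1:169969156-169969455, minus strand): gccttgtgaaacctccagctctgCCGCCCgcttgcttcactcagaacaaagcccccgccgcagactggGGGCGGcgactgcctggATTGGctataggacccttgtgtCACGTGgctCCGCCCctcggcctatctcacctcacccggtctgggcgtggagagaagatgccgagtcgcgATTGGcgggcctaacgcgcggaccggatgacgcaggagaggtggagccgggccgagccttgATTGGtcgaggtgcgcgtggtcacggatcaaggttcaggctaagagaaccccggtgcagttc
The second promoter belongs to Hsd17b7, called lower with the gate in both genotypes. It holds 3 CCAAT boxes, 3 GC boxes and 1 E-box, and Hmgcs1 holds 4 CCAAT boxes and 3 GC boxes beside its sterol element. CCAAT letters stood in a window of 13 of the 14 sterol synthesis genes matched, against 41.1% of all 27025 genes (37.4% of windows). GC box letters likewise stood in 13 of 14, against 38.2% of genes (35.7% of windows), and E-box letters in 3 of 14, against 8.09% of genes (7.15% of windows). A match of letters is no evidence of binding.

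The enzymes that make and oxidise squalene were called in all 4 comparisons. Sqle, squalene epoxidase and a rate-limiting step, lies on chromosome 15 (59315077 to 59331192, plus strand). It was at 25.8 CPM (24.3 to 27.5) in wild-type unselected, 10.2 (9.38 to 11) in wild-type gated, 67.4 (65.3 to 69.5) in knockout unselected and 24.9 (23.5 to 26.3) in knockout gated cells. Gated cells were lower than unselected cells by 2.39-fold in wild-type and 2.64-fold in knockout cells, and knockout cells were higher than wild-type cells by 2.55-fold unselected and 2.31-fold gated. These levels came from few cells, since Sqle was found in 11.5%, 4.44%, 11% and 14.5% of thinned cells. By mean CPM per cell the genotype differences were smaller, at a log2 of 0.79 unselected and 0.90 gated, and no longer called. Spike-in scaling ended both gate calls of Sqle, leaving a log2 of -0.82 in wild-type and -0.10 in knockout cells. The knockout gate call was also lost among cells with 2000 to 4000 detected genes, at -0.50. Without the cells carrying 3 or more border-associated macrophage markers the genotype difference in gated cells was -0.65.

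Fdft1, squalene synthase, lies on chromosome 14 (63145150 to 63179578, minus strand). It was at 9.29 CPM (8.36 to 10.3), 3.29 (2.83 to 3.81), 38.2 (36.6 to 39.8) and 9.86 (9.02 to 10.8). Fdft1 was called in the same directions as Sqle, with knockout unselected cells highest and wild-type gated cells lowest. It was lower with the gate by 2.40-fold in wild-type and 3.60-fold in knockout cells, and higher in knockout cells by 3.81-fold unselected and 2.53-fold gated. The genotype call in gated cells was lost under 4 of 14 alternatives, with a lowest log2 of 0.30. It was found in 8.97%, 2.22%, 10.0% and 11.8% of thinned cells, so the knockout groups differed in level and not in the same direction in share of cells. Among cells with 2000 to 4000 detected genes the genotype difference in unselected cells turned to -0.75 and the knockout gate call was lost at -0.50. Spike-in scaling ended both gate calls, at -0.87 in wild-type and -0.58 in knockout cells. Its exons overlap those of Ctsb, an abundant lysosomal protease on the opposite strand, over 18.3% of their bases.

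Among enzymes after lanosterol, groups stood apart in different ways. Cyp51, lanosterol demethylase, was at 65.4 CPM (62.9 to 68) in wild-type unselected and 18.9 (17.8 to 20.1) in wild-type gated cells, against 51.2 (49.3 to 53.1) and 45.9 (44.1 to 47.8) in the knockout groups. It was found in 30.8%, 8.89%, 13.3% and 30.3% of thinned cells. Wild-type gated cells stood apart as low in level, giving a 3.33-fold lower call with the gate and a 2.35-fold higher call in knockout gated cells. In share of cells they were near knockout unselected cells, at 15.6% against 14.4% before thinning. Both calls were lost among cells with 2000 to 4000 detected genes, where the log2 differences were -0.90 and 0.12. The genotype call was also lost without cells carrying border-associated macrophage markers. In knockout cells the gate difference of Cyp51 was a log2 of -0.15.

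Nsdhl, which removes the methyl groups of lanosterol products, was at 10.9, 11, 52.6 and 12.8 CPM. The knockout unselected plate was high and the other 3 groups were alike, giving a 4.49-fold higher call between unselected groups that was kept under all 14 alternatives and a 3.89-fold lower call with the gate in knockout cells, which spike-in scaling ended at -0.68. Nsdhl was found in 12.2% of thinned knockout unselected and 19.7% of knockout gated cells. Hsd17b7, which acts in the same demethylation, was at 8.65, 0, 14.1 and 4.26 CPM. With 0 counts in 90 wild-type gated cells, Hsd17b7 was 9.65-fold lower with the gate in wild-type cells. Without the added 1 CPM it was at least 155-fold lower, taking 3 counts in the whole group as the floor. That floor lies under the upper end of the Poisson interval of a count of 0 and covers counting error only. Hsd17b7 was 2.88-fold lower with the gate in knockout cells, a call that spike-in scaling ended at -0.35. Without the top cell of each group the wild-type difference fell below the measuring level and was not called.

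Lss and Tm7sf2 were lower in both comparisons with wild-type unselected cells. Lss, lanosterol synthase, was at 19.9, 4.52, 8.49 and 8.64 CPM, but 1 cell held 95.8% of its counts in wild-type unselected cells and 1 cell held all of them in wild-type gated cells. Without those cells neither Lss call remained, and the genotype difference turned to a log2 of 1.15. Tm7sf2, a sterol reductase, was at 14.1, 5.58, 3.08 and 2.91 CPM, lower by 2.30-fold with the gate and 3.71-fold in knockout unselected cells. Among cells with 2000 to 4000 detected genes its gate difference turned to 0.75 and its genotype difference was -0.16. The late enzymes Ebp, Sc5d and Dhcr7 ranged from 29 to 98.3 CPM and were called in no comparison.

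**Figure D2:**
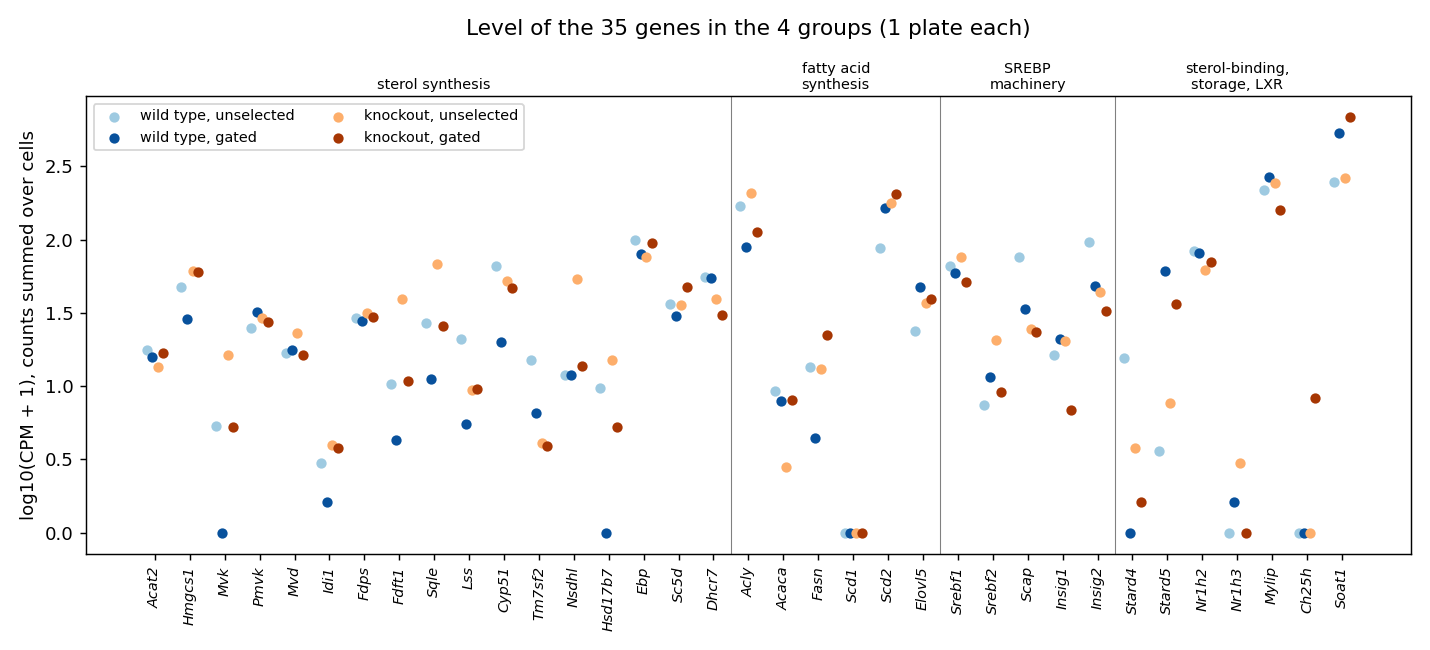
Level of each of the 35 genes on a log10 axis of CPM plus 1, with 1 point per group and genes grouped by role. Wild-type gated cells have the lowest point for Sqle (10.2 CPM), Fdft1 (3.29) and Cyp51 (18.9), and Soat1 is highest in the gated groups (535 and 684).

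Taking the 17 genes by their median log2 difference, values were -0.73 with the gate in wild-type cells, -0.09 with the gate in knockout cells, 0.22 by genotype in unselected and 0.67 by genotype in gated cells. All measured genes had medians of -0.16, -0.29, 0.07 and -0.02. With spike-in scaling the medians of the 17 genes were -0.28, 0.93, -0.25 and 1.04, so that 2 of the 4 changed sign. Relative to all genes the medians were -0.58, 0.20, 0.15 and 0.69 without spike-in scaling and -0.60, -0.13, 0.19 and 0.68 with it, so the gate difference in knockout cells changed sign on this scale as well. With the gate, cells with 2000 to 4000 detected genes gave -0.55 in wild-type and -0.50 in knockout cells. Without cells carrying 3 or more border-associated macrophage markers the gate medians were -1.06 and -0.93, with 8 and 7 of the 17 genes called lower. All measured genes then had medians of -0.17 and -0.33, with 24.5% and 31.1% called lower. In wild-type cells 1 of the 17 was called higher at this step, against 16.6%. In wild-type cells 14 of the 17 had a log2 below 0 with the gate, against 57.2% of all measured genes. Among gated cells 13 of the 17 were above 0 in knockout cells, against 49.3%. That genotype median fell to 0.12 among cells with 2000 to 4000 detected genes and to 0.10 without cells carrying 3 or more border-associated macrophage markers, a step that left 18 of 76 knockout gated cells. Without cells carrying cycling markers it was 0.87. The border-associated macrophage list includes Mrc1 and Stab1, which were at 344 to 465 CPM in unselected cells. A stricter choice, added after the data were seen, left out cells with 2 or more of 5 border markers. It removed 8 of 90 wild-type and 3 of 76 knockout gated cells. The genotype median in gated cells was then 0.58, and the gate medians were -0.60 in wild-type and -0.16 in knockout cells.

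Fatty acid genes did not move as one list. Acly, which makes cytosolic acetyl-CoA from citrate, was at 168, 87.5, 206 and 112 CPM and so lower in the gated groups, but passed 2-fold in neither genotype (log2 -0.94 and -0.87). Scd2, a desaturase, was at 86.2, 164, 176 and 203 CPM and was called higher in knockout than in wild-type unselected cells at 2.03-fold, a call lost under 9 of 14 alternatives. Elovl5, an elongase of polyunsaturated fatty acids, was at 22.9, 46.3, 35.8 and 38.6 CPM and was not called. Scd1, the paralogue of Scd2, had 0 counts in all 334 cells, which by a floor of 3 cells allows up to 0.898% of cells to have a count and sets no limit on cells that express it. Of this pair only Scd2 was thus counted.

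Fasn and Acaca, which build palmitate, differed most in knockout gated cells by share of positive cells. Fasn, fatty acid synthase, was at 12.5 CPM (11.4 to 13.7), 3.46 (2.98 to 3.99), 12 (11.3 to 13.1) and 21.5 (20.2 to 22.8). It was found in 5.13%, 3.33%, 4.44% and 25% (15.8 to 36.3) of thinned cells. Knockout gated cells were higher than wild-type gated cells by 5.04-fold, and the call was kept under all 14 alternatives over a log2 range of 1.65 to 3.33. With the gate in wild-type cells Fasn was 3.03-fold lower, a difference that turned to a log2 of 0.99 among cells with 2000 to 4000 detected genes. Acaca, acetyl-CoA carboxylase, was at 8.31, 6.96, 1.83 and 7.03 CPM and found in 2.56%, 4.44%, 2.22% and 14.5% of thinned cells. It was called 2.84-fold higher with the gate in knockout cells, but the log2 was -0.06 without cells carrying border-associated macrophage markers. Its 3.29-fold lower call between unselected groups rested on 3 cells in each group. Without the top cells its log2 was -1.54 against -1.72 with them, but it was under the measuring level of 5 CPM, and it turned to 1.76 among cells with 2000 to 4000 detected genes.

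Among storage and sterol-binding genes, Soat1 and Stard5 were called with the gate in both genotypes. Soat1 lies on chromosome 1 (156424525 to 156474331, minus strand). It was at 245 CPM (240 to 250) in wild-type unselected, 535 (528 to 541) in wild-type gated, 263 (259 to 267) in knockout unselected and 684 (677 to 691) in knockout gated cells. Its level per cell had a median of 59.5, 473, 19 and 664 CPM, from 0 to a highest cell of 2017, 2149, 2009 and 2270 CPM. The ranges of single cells overlapped wholly, and the groups differed in how many cells were low: Soat1 was found in 61.5%, 91.1%, 54.4% and 94.7% of thinned cells. With the gate it was 2.18-fold higher in wild-type and 2.59-fold higher in knockout cells. The knockout call was kept under all 14 alternatives, whereas the wild-type call was lost under 3 of them, with a lowest log2 of 0.50.

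Stard5 lies on chromosome 7 (83631959 to 83653127, plus strand). It was at 2.59 CPM (2.11 to 3.15), 60.4 (58.4 to 62.5), 6.73 (6.07 to 7.44) and 35.5 (33.9 to 37.2). It was found in 6.41% (2.11 to 14.3), 28.9% (19.8 to 39.4), 6.67% (2.49 to 13.9) and 35.5% (24.9 to 47.3) of thinned cells. The gated groups were high and the unselected groups low in both measures, by 17.1-fold in wild-type and 4.73-fold in knockout cells, and both calls were kept under all 14 alternatives. The wild-type gated level was above the knockout gated level although fewer of its cells were positive, and 32.2% of its counts came from 1 cell. Between unselected groups Stard5 was called 2.15-fold higher in knockout cells, but 1 cell held 60.6% of those counts and the log2 without the top cells was 0.41. Its exons overlap those of Il16 on the opposite strand and Gm45838 on the same strand over 23.9% of their bases. The promoters of both genes called higher with the gate in both genotypes are shown with the same capitals as above.
Soat1 (chr1:156474279-156474578, minus strand): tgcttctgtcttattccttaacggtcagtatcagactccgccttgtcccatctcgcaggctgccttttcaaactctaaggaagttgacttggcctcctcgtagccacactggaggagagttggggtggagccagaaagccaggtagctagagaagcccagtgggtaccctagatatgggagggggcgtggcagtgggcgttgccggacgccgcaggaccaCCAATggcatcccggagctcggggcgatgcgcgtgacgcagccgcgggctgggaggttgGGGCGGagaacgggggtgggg
Stard5 (chr7:83631767-83632066, plus strand): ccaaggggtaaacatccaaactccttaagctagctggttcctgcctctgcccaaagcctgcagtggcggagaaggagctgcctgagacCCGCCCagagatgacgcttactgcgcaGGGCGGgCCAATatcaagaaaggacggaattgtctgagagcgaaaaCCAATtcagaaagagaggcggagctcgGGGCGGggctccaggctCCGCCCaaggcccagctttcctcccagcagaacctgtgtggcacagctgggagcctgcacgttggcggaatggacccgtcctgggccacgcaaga
Soat1 has 1 CCAAT box and 1 GC box, and Stard5 has 2 CCAAT boxes and 4 GC boxes. Neither window holds the letters of the sterol element or the E-box, which says nothing about other letters or regions.

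**Figure D3:**
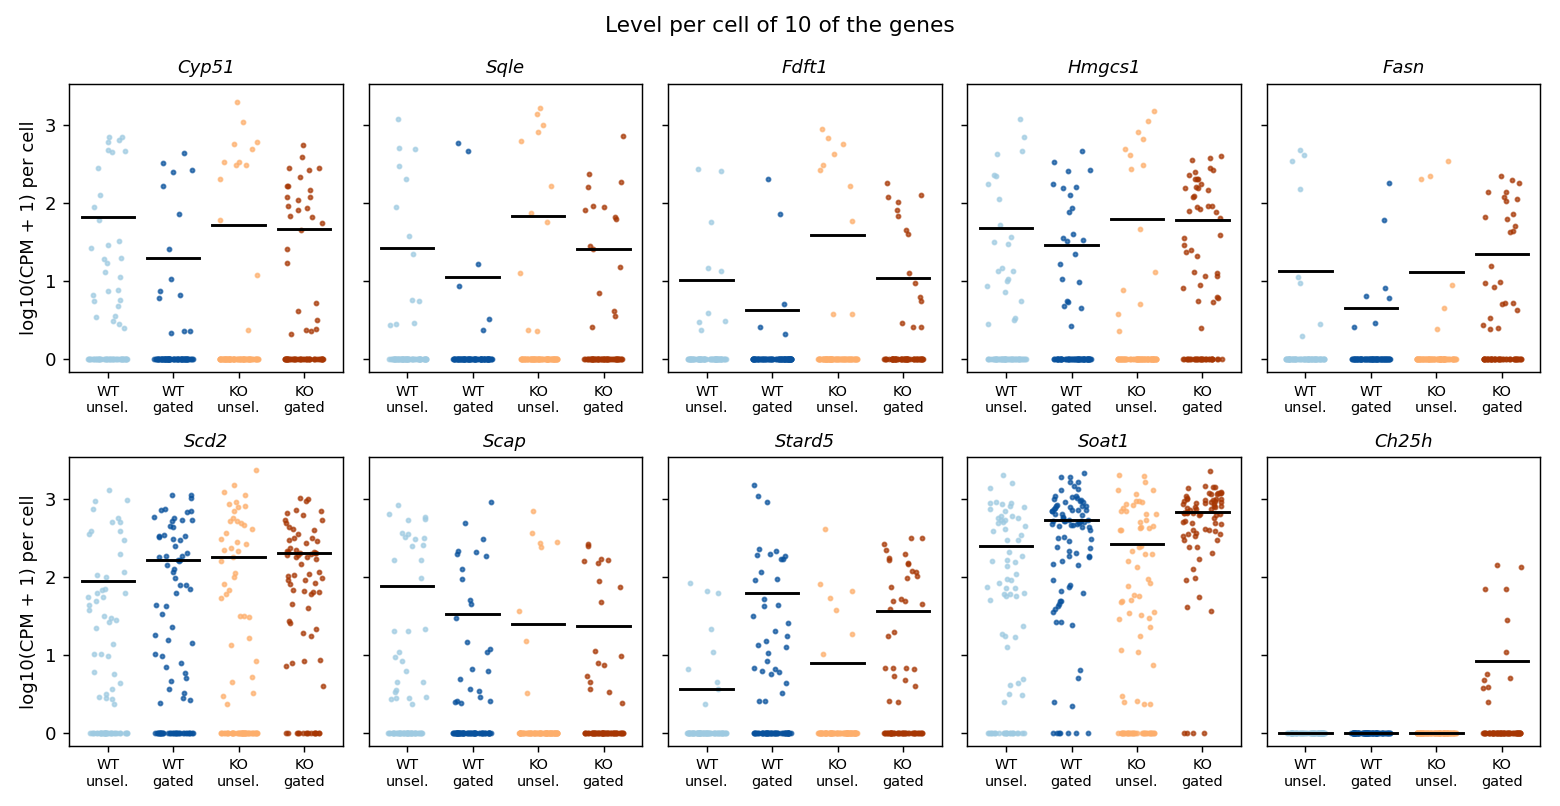
Level per cell (log10 of CPM plus 1) of 10 of the genes in the 4 groups, with 1 point per passing cell and a bar at the level of the group sum. Soat1 positive cells fill the gated groups, Ch25h points above 0 occur in knockout gated cells only, and Sqle and Fdft1 levels rest on few cells.

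Ch25h lies on chromosome 19 (34473778 to 34475164, minus strand). It was at 0 CPM in 3 groups and at 7.31 CPM (6.58 to 8.09) in knockout gated cells. Its counts came from 12 of 76 knockout gated cells, and 0 of the 258 other cells had a count, which by the floor of 3 cells allows up to 1.16% of such cells to have a count. Knockout gated cells were 8.31-fold higher than knockout unselected and than wild-type gated cells. Without the added 1 CPM they were at least 139-fold and 131-fold higher, taking 3 counts as the floor of a group at 0. The 2 differences share the same 12 cells, of which 1 held 32.5% of the counts. Both calls were lost among cells with 2000 to 4000 detected genes and without cells carrying border-associated macrophage markers. Knockout gated cells also had the most detected genes, and the part of that in the detection of Ch25h was not tested.

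Stard4, a sterol carrier related to Stard5 and an SREBP target, went the other way. It was at 14.6, 0, 2.79 and 0.614 CPM. Stard4 was 15.6-fold lower in wild-type gated than in wild-type unselected cells. Without the added 1 CPM it was at least 262-fold lower, by the same floor of 3 counts. A single cell held 81.6% of its wild-type unselected counts, and knockout unselected cells were called 4.12-fold lower. Without the top cells the log2 differences were still -1.90 with the gate and -1.62 by genotype, but under the measuring level of 5 CPM, so neither call was made. After thinning Stard4 was found in 4, 0, 2 and 0 cells. The pair of sterol carriers thus differed in direction with the gate, Stard5 on many cells and Stard4 on few.

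Nr1h2, which encodes LXR beta, was at 83.3, 79.8, 61 and 69.2 CPM and passed the size rule in no comparison. Nr1h3, which encodes LXR alpha, was at 0, 0.632, 1.99 and 0 CPM from 3 of 334 cells, so no comparison could be made at this depth. Mylip was at 219, 268, 244 and 158 CPM and also not called. Per kilobase of exon Mylip had the highest level of the 35 genes in 3 groups (67.7, 83 and 75.4 CPM per kilobase), and Soat1 (69.9) lay above Mylip (49) in knockout gated cells.

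Of 9 genes outside the 35, a list of LXR targets and sterol export, 6 were called higher with the gate in wild-type cells (66.7%, against 14.3% of all measured genes) and 5 in knockout cells (55.6%, against 11.6%), and 0 were called lower in either. Single genes ranged from a log2 of -0.29 (Arl4c, a small GTPase) to 4.56 in wild-type cells and from -0.63 (Lpcat3, a phospholipid acyltransferase) to 5.29 in knockout cells. Median log2 differences were 1.46 and 1.44, and stayed positive with spike-in scaling at 1.93 and 2.77. Apoe, the main lipid carrier of the brain, was at 11090, 30471, 11028 and 29891 CPM. Pltp, a phospholipid transfer protein, was at 0.385, 31.6, 0.0351 and 39.5 CPM. Smpdl3a, a phosphodiesterase, was at 3.80, 60.3, 16.2 and 99.4 CPM, and Apoc2, an apolipoprotein, at 1.41, 17.5, 0 and 18.2 CPM. Between genotypes 1 of the 9 was called higher in unselected cells, namely Smpdl3a with 54.8% of its knockout unselected counts in 1 cell, and 0 in gated cells. The list was chosen with earlier results of these cells known and is no independent support for the direction of Soat1 or Stard5.

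Other SREBP targets did not move as a list. Of 13 genes, 2 were called higher (15.4%, against 14.3% of all measured genes) and 4 lower (30.8%, against 20.5%) with the gate in wild-type cells, and 1 higher (7.69%, against 11.6%) and 2 lower (15.4%, against 22.6%) in knockout cells. By genotype, 0 were higher (against 16.1% of all measured genes) and 3 lower (23.1%, against 13.2%) in unselected cells. In gated cells 3 were higher (23.1%, against 10.5%) and 1 lower (7.69%, against 12%). Of the 13, 10 and 9 were measured with the gate in wild-type and knockout cells. By genotype 10 were measured in unselected and 8 in gated cells. Fads2, a desaturase, had 0 counts in knockout gated cells against 9.37 CPM in knockout unselected cells, where 1 cell held 53.3% of them. Of 8 genes of sterol trafficking and breakdown, 2 were higher (25%, against 14.3% of all measured genes) and 1 lower (12.5%, against 20.5%) with the gate in wild-type cells. In knockout cells 1 was higher (12.5%, against 11.6%) and 1 lower (12.5%, against 22.6%). Osbp, an oxysterol-binding protein, was at 37.2, 6.32, 9.58 and 13.1 CPM, and Cyp27a1, a sterol hydroxylase, at 36.6, 87.2, 20.1 and 40.0 CPM.

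Share of cells and level differed in direction in knockout gated cells. With the gate in knockout cells 31 of the 35 genes were found in more thinned cells (88.6%), against 89.2% of all measured genes, and for 31 the highest single cell was lower, against 87.6% of all genes. Between gated groups 31 of 35 were found in more knockout cells, against 85.2% of all genes. The 35 genes thus shared a pattern of all measured genes on this plate, with more positive cells and lower peaks. In wild-type cells the gate gave more positive cells for 15 of 35 (42.9%) and fewer for 18, against 52.1% and 47.5% of all genes. For 6 of 29 measured members in wild-type unselected cells, 4 of 25 in wild-type gated, 3 of 28 in knockout unselected and 0 of 28 in knockout gated cells, 1 cell held at least as many counts as all others together, and all measured genes did so for 16.4%, 9.40%, 13.8% and 2.97%.

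**Figure D4:**
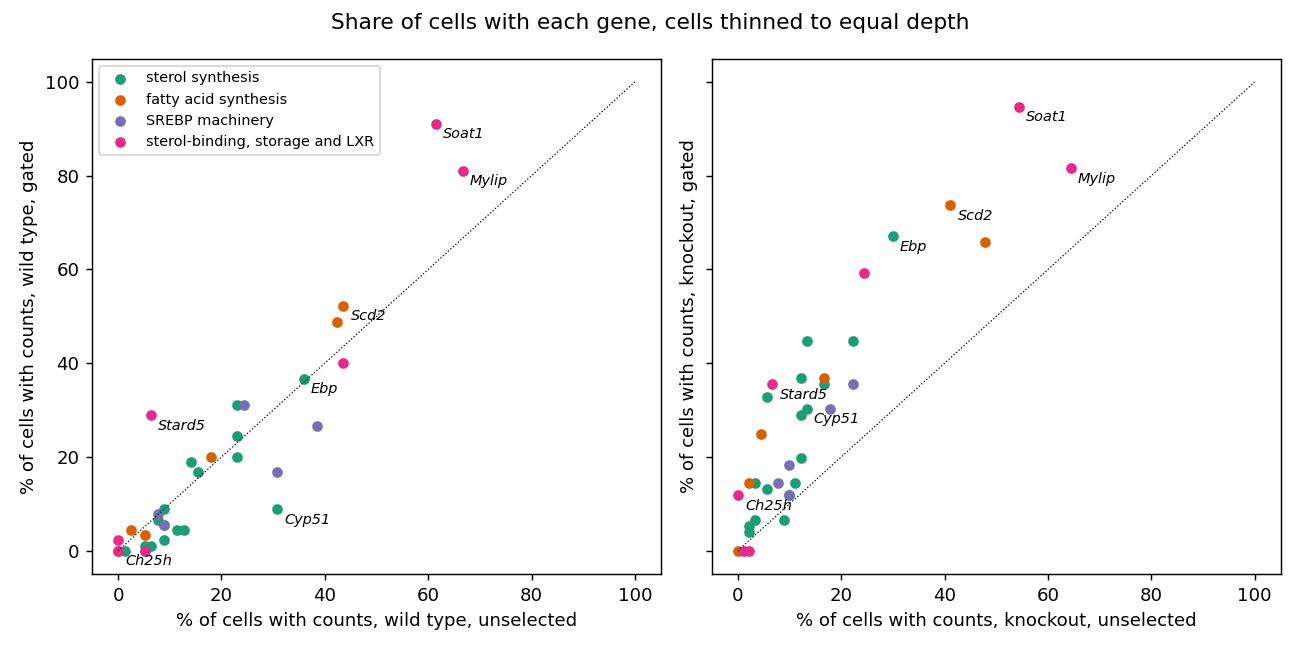
Share of thinned cells with counts of each of the 35 genes, unselected cells on the horizontal and gated cells on the vertical axis (both in percent), wild type on the left and knockout on the right, coloured by role. Points above the dotted line of equality are genes found in more gated cells, 15 of 35 in wild-type and 31 of 35 in knockout cells, with Soat1 at 94.7% of knockout gated cells.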

How the data were processed

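Values are whole-number counts for genes and spike-in RNA in 369 cells, as deposited. HTSeq, Picard, STAR (2.5.3a) and Trim Galore (0.4.3) with mm10 are named in the submitters' processing notes, with no annotation or strand setting given there. Cells failing any of the 3 quality criteria of the labels were left out (12, 3, 3 and 17), and no doublet caller was run, since cells were sorted singly into wells. Spike-ins (92 rows, 3.56% of counts) stayed out of library sizes, and 0 mitochondrial genes are in the table.

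Counts were summed per group with numpy 2.4.6 and pandas 2.3.3 and scaled to CPM. Intervals came from scipy 1.17.1 (exact Poisson for levels, Clopper-Pearson for shares, 95%). No model was fitted and no p-value computed. Thinning to 100000 gene counts lost 0 cells, with a seed of 7. The 13 processing alternatives were mean CPM per cell, edgeR 4.0.16 trimmed-mean factors, DESeq2 1.42.0 size factors, spike-in scaling, pseudocounts of 0.1 and 5 CPM, a measuring level of 0 or 20 CPM, cells with 2000 to 4000 detected genes, thinned cells, and leaving out the top cell of each gene, cells with 3 or more border-associated macrophage markers, or cells with 2 or more cycling markers. A further one, added after the data were seen, left out cells with 2 or more of Lyve1, Cd163, F13a1, Cd209f and Cbr2.

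The members and lists were chosen with earlier results of these data known. Full values are given for members called in any comparison and for Srebf1, Srebf2, Insig1, Nr1h2 and Nr1h3. Of other lists, up to 4 genes with the largest differences were eligible, and Apoe, outside that rule, was chosen after its values were seen. Some genes eligible under that rule are not reported here. Promoters are those of members called the same way in both gate comparisons, where a promoter window was matched. Sqle and Fdft1 also met that rule but had no matched window. The Hmgcs1 promoter and the motif letters were chosen after values were seen. Gene positions, exon lengths and overlaps come from GENCODE M21, and promoters from RefSeq.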

Additional observations from a re-analysis of the deposited data

Results flagged for a closer look

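Acsl3, a long-chain acyl-CoA synthetase and SREBP target outside the 35 genes, was called in opposite directions with the gate in the 2 genotypes. In wild-type cells its level was 14.6 CPM unselected and 0.167 CPM gated, and in knockout cells 1.49 CPM unselected and 6.46 CPM gated. The gate difference was a log2 of -3.74 in wild-type and 1.58 in knockout cells, a gap of 5.32, and the genotype differences in unselected and gated cells were apart by the same 5.32. The difference was not tested. A single cell held 81.4% of the wild-type unselected counts and another 55.5% of the knockout gated counts.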

How the results depend on the processing

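Of 42 calls of members over the 4 comparisons, 6 were kept under all 14 alternatives, 10 turned in direction under at least 1, and 8 were lost without the top cell. In the order gate in wild-type cells, gate in knockout cells, genotype unselected and genotype gated, the counts of higher members were 2, 4, 7 and 6 and of lower members 9, 7, 6 and 1. Spike-in scaling gave 5, 17, 3 and 10 of the 35 higher, against 24.3%, 52.6%, 8.05% and 20.0% of all measured genes. It gave 5 lower in the first and 0 in the second comparison, against 12.2% and 3.80%. It moved the sterol synthesis median to 0.93 in the second and -0.25 in the third, and Srebf2 with the gate in knockout cells to 0.06. The median of the gate in knockout cells was 0.14 with edgeR factors, 0.12 with DESeq2 factors and 0.07 without the top cells. Both factor sets gave 4 higher in the first comparison, against 17.5% and 17.1% of all genes. Mean CPM per cell gave 1 higher in the first and 4 in the third, against 14.1% and 17% of all genes. A measuring level of 20 CPM gave 3 lower in the first, against 18.1% of all genes. In the second it gave 2 higher (against 8.17%) and 3 lower (against 20.3%). In the third it gave 4 higher (against 11.6%) and 2 lower (against 9.33%). A pseudocount of 5 CPM gave 3 higher in the fourth, against 6.64%.

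Among cells with 2000 to 4000 detected genes 4 were higher in the first and 3 lower in the fourth, against 21.4% and 19.9% of all genes. In these cells Tm7sf2 was at 0.75 and Fasn at 0.99 with the gate in wild-type cells. Between unselected groups Fdft1 was at -0.75 and Acaca at 1.76 there. Without the top cells 3 were lower in the third and 0 in the fourth, against 12.7% and 9.19% of all genes. The sterol median of the fourth was then 1.29, and Lss in the third was at 1.15. Without border-associated macrophage marker cells 6 were higher in the first and 6 lower in the fourth, against 16.6% and 22.5% of all genes. The sterol median of the third was then 0.00, Insig1 (0.42) and Acaca (-0.06) turned in the second, and Sqle (-0.65) in the fourth. Without cycling marker cells 2 were lower in the fourth, against 14.7% of all genes. The sterol median of the third was then -0.08, and Srebf2 in the third was at -0.21. The alternative added after seeing the data, without cells carrying at least 2 of 5 stricter border markers, kept 41 of 42 calls. The causes of these shifts were not tested. No paired analysis was possible because replicate numbers only name cells and each group is 1 plate.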
